A study of Homo sapiens with 12 samples.

Results

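The cytosolic ribosomal protein genes were followed through the TNF-α response of HL-60/S4 cells, a human promyelocytic leukemia cell line that all-trans retinoic acid (ATRA) turns into granulocyte-like cells. The genes were chosen by name: protein-coding genes called *RPL* or *RPS* with a number, together with *RPSA*, *RPLP0*, *RPLP1*, *RPLP2* and *FAU*, without the *RPS6K* kinases and without pseudogenes. This rule uses no measured value. It found 92 of the 58288 genes in the count table. Of these, 78 encode the core proteins of the ribosome (32 in the small and 46 in the large subunit), 10 are paralogs of core genes, 3 are read-through genes that join a ribosomal protein gene to its neighbor, and 1, *RPS19BP1*, encodes a protein that binds a ribosomal protein and is not part of the ribosome. *RACK1*, which also encodes a protein of the ribosome, falls outside the naming rule and is given beside the members.

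Each of 4 groups held 3 libraries. HL60/S4 promyelocytes (undifferentiated) received vehicle (water) or 16 ng/mL TNF-α for 2 h, and granulocytes, made from the same line with 1 µM ATRA over 4 days, received the same vehicle or the same TNF-α. All cells were at passage 8, grew in the same serum-containing medium and were treated in calcium-supplemented medium. The line is a single leukemia line, so the 3 libraries of a group are separate flasks of it and p-values measure the spread between flasks. The promyelocyte and granulocyte experiments were run independently, so the effects of differentiation and of experiment on a level cannot be told apart, and no level was compared between cell types by a test.

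A ribosome is built from ribosomal RNA and about equal amounts of each ribosomal protein, which are made in the cytoplasm and carried to the nucleolus for assembly. The messenger RNAs of nearly all ribosomal proteins begin with a terminal oligopyrimidine (TOP) tract, a C at the cap followed by a run of C and T bases, through which the mTOR kinase and the protein LARP1 adjust their translation and stability together. The transcription factor MYC raises transcription of many of these genes in growing cells. Defects of single ribosomal proteins are known for their effect on red cell production, as in Diamond-Blackfan anemia.

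The libraries held 22829189 to 31895061 counted read pairs. The 92 genes together took between 1129243 and 2139340 of them, or 4.94% to 6.73% of all counts. In promyelocytes this share was 6.73%, 6.21% and 6.17% with vehicle and 5.66%, 6.61% and 6.19% with TNF-α. In granulocytes it was 5.52%, 4.94% and 5.14% with vehicle and 5.02%, 5.15% and 4.95% with TNF-α. The ranges with and without TNF-α overlapped in each cell type, and the lowest promyelocyte value was that of the first TNF-α library. In bulk RNA, fewer cells of a type and less RNA per cell cannot be told apart.

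The markers of the labelled cell types were present. The 6 promyelocyte genes summed to 7819 to 8430 counts scaled to library size (CPM) in vehicle-treated promyelocytes and 2247 to 2478 CPM in vehicle-treated granulocytes, and the 11 granulocyte genes to 164 to 172 CPM and 4993 to 5279 CPM. The secondary granule gene *LTF* was at 0 in 3 of the 4 groups and *CAMP* was below 1 CPM throughout. The summed erythroid markers reached at most 0.256 CPM, with *HBB* and *HBA1* at 0, and the lymphocyte markers at most 5.73 CPM. With TNF-α the promyelocyte markers were at 6463 to 7352 CPM in promyelocytes, below vehicle, and at 2176 to 2361 CPM in granulocytes, overlapping it. The summed granulocyte markers were above vehicle in both cell types, at 287 to 302 CPM and 5588 to 5898 CPM. Single genes went both ways: of the 9 tested, 3 rose and 1 fell in promyelocytes and 4 rose and 3 fell in granulocytes. Their median log2 fold change in granulocytes was 0.006. Of all genes tested, 8.15% rose and 6.65% fell in promyelocytes, and 24.4% and 24.8% in granulocytes. Of 5 monocyte and macrophage markers 1, *CSF1R*, was above 1 CPM, and their sum was 30.1 to 33.8 CPM in TNF-α treated granulocytes against 49.5 to 51.3 CPM with vehicle. The part of these markers in the results below was not tested. All 5 TNF-α target genes used to check the treatment (*NFKBIA*, *TNFAIP3*, *TNF*, *ICAM1* and *VCAM1*) rose in both cell types.

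**Figure D1:**
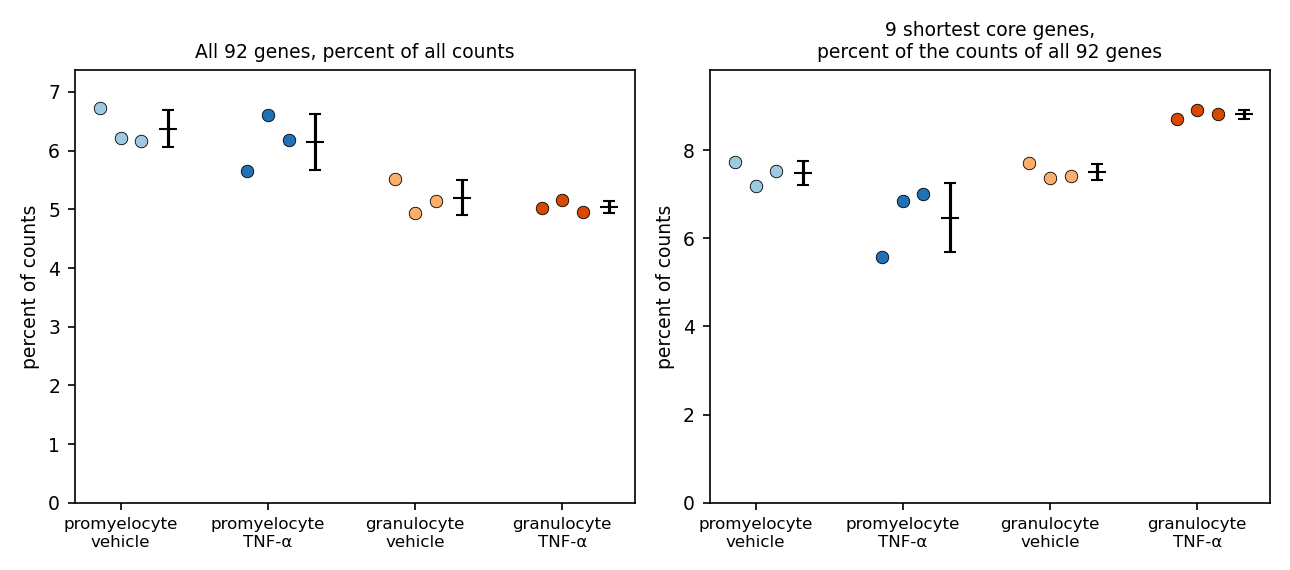
Left, the counts of all 92 ribosomal protein genes as percent of all counts in each of the 12 libraries. Right, the counts of the 9 core genes with coding sequences of up to 300 nucleotides as percent of the counts of all 92 genes. Points are libraries (replicates 1 to 3 from left to right), bars the mean and SD of 3 libraries. The family's share overlaps between vehicle and TNF-α in both cell types, whereas the share of the 9 short genes lies at 8.71% to 8.92% in TNF-α treated granulocytes, above all other libraries.

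The core genes spanned a wide range of levels. The median core gene stood at 645 CPM over the 4 groups, and 74 of the 78 were at 214 CPM or more. Per kilobase of annotated exon, *RPS12* (1129 CPM per kb), *RPS2* (848), *RPL13A* (682) and *RPS27* (646) were among the highest. *RPS2* sits at the entry of the mRNA channel. The annotated exon lengths join every isoform and run from 767 to 9743 nucleotides among core genes, so levels per kilobase of coding sequence were also computed. On that scale *RPL41* led with 8090.2 CPM per kb, followed by *RPLP1* with 3322 and *RPL37A* with 3049.

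The 4 core genes below 214 CPM were *RPS10*, *RPL36A*, *RPL17* and *RPL26*, at 3.44 to 56.2 CPM in single libraries. These genes share exons with other annotated genes. Of the exon bases of their main transcripts, 84.0% (*RPS10*), 96.9% (*RPL17*), 65.3% (*RPL26*) and 43.8% (*RPL36A*) also belong to another gene on the same strand, which for *RPS10*, *RPL17* and *RPL36A* are the read-through genes *RPS10-NUDT3*, *RPL17-C18orf32* and *RPL36A-HNRNPH2*. The counting left out read pairs on exons shared by 2 genes, so only a part of the reads of these 4 genes was counted. Of the 78 core genes, 70 share no base of their main transcript with another gene on the strand. Processed pseudogenes took 42.6% of the counts of gene and pseudogenes together for *RPL36A* and 41.9% for *RPL17*. The share was 22.8% for *RPS10* and 5.94% for *RPL26*, where the median over core genes was 0.611%.

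Of the 92 genes, 85 passed the filter on low counts and were tested in each cell type. The 7 that did not pass were the 3 read-through genes, the testis-type paralog *RPL10L*, the muscle paralog *RPL3L*, and *RPS4Y1* and *RPS4Y2*. All 78 core genes, 6 of the 10 paralogs and *RPS19BP1* were tested.

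In promyelocytes, 4 of the 85 genes rose with TNF-α and none fell (edgeR quasi-likelihood test, Benjamini-Hochberg adjusted p under 0.05 over all 16250 genes tested). This is 4.71% of the genes, where 14.8% of all genes tested were called, 8.15% as increased and 6.65% as decreased. Without adjustment, 5 were higher and 6 lower at p under 0.05, beside 2219 and 2156 of all 16250 genes tested. DESeq2 called 3 higher and 0 lower, beside 1270 and 919 of all genes. The median log2 fold change was -0.03, beside -0.01 for all genes. TNF-α libraries lay entirely above vehicle libraries for 4 of the 85 genes and entirely below for 2, against 16% and 15.1% of all genes tested.

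The largest of these increases was that of *RPS10* (ENSG00000124614.13, chr6:34417454-34426125, hg38), a small subunit protein whose gene is mutated in some Diamond-Blackfan anemia families. Its normalized level was 8.37, 9.89 and 9.89 CPM with vehicle and 13.5, 11.4 and 11.97 CPM with TNF-α. The log2 fold change was 0.39 ± 0.11 (SE, adjusted p = 0.0186, edgeR), and the groups did not overlap. *RPL36A* rose by 0.32 ± 0.10 (adjusted p = 0.0376), from 19.4, 20.04 and 26.2 CPM to 27.6, 29.6 and 24.8 CPM, with overlap between the groups. *RPL26*, whose product binds p53 mRNA, rose by 0.20 ± 0.07 (adjusted p = 0.0459), from 44.8, 43.6 and 45.8 CPM to 49.6, 56.2 and 48.8 CPM. These are 3 of the 4 core genes with over 30% of exon bases shared with another gene. The 4th, *RPL17*, stood at 0.09 ± 0.07 (adjusted p = 0.485). The part of the shared exons in these increases was not tested.

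The 4th call in promyelocytes was *RPL22L1*, a paralog that can take the place of *RPL22* in the large subunit. It rose from 50.8, 49.9 and 49.5 CPM to 57.2, 63.0 and 54.4 CPM, without overlap, by 0.22 ± 0.07 on the log2 scale (adjusted p = 0.0295). Its parent *RPL22* stood at -0.03 ± 0.06 (adjusted p = 0.759). None of the 4 calls held in every fit that left out 1 library: *RPS10* was called in 4 of 6 such fits and the other 3 in 2 of 6. After correction of every library for GC content and exon length, 1 of the 4 calls, that of *RPS10*, was left.

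In granulocytes, 25 of the 85 genes rose and 1 fell, by the same test over 16944 genes. Of all genes tested 49.2% were called, 24.4% increased and 24.8% decreased. The increases (29.4% of the 85) were thus near the share for all genes, and the decreases (1.18%) were far fewer. Few decreases were also seen among other short protein-coding genes at 161 CPM or above. With coding sequences of up to 300 nucleotides 52.4% of these rose and 4.76% fell, and above 300 and up to 400 nucleotides 43.9% and 7.32%. Above 500 and up to 700 nucleotides 40.8% rose and 10.5% fell, and above 2000 nucleotides 35.1% and 29.5%. The median log2 fold change was 0.08, beside -0.0047 for all genes, and 71 of the 85 values were above 0. TNF-α libraries lay entirely above vehicle libraries for 19 genes (22.4%) and entirely below for 1 (1.18%), against 27.3% and 27.9% of all genes tested. Both subunits took part: 10 of 32 core genes of the small and 14 of 46 of the large subunit rose, with medians of 0.08 each.

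The sizes were small. The largest increase, that of *RPS29*, was 0.55 on the log2 scale, and 70 of the 85 values lay within 0.2 of 0. *RPL36A* rose by 0.50 ± 0.09 (adjusted p = 1.4e-05), from 12.7, 13.3 and 11.7 CPM to 15.6, 17.9 and 19.9 CPM. It was the only gene of the 85 called in both cell types, in the same direction in each. The gene that fell was *RPS15A* (ENSG00000134419.15, chr16:18781295-18790383), a small subunit protein, which went from 396, 364 and 370.4 CPM to 338, 365 and 335 CPM. Its log2 fold change was -0.12 ± 0.05 (adjusted p = 0.0413), the groups overlapped, and the call held in 2 of the 6 fits that left out 1 library.

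**Figure D2:**
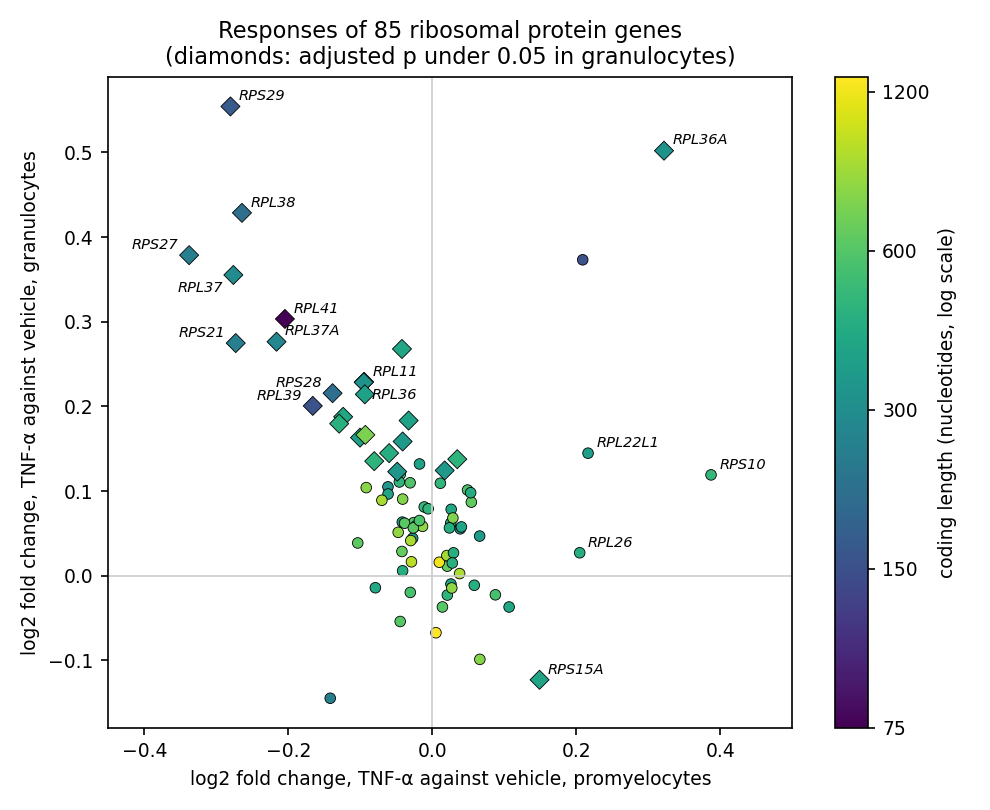
Log2 fold change with TNF-α in promyelocytes (horizontal axis) and granulocytes (vertical axis) for the 85 genes tested. Each point is a gene, its color the coding length in nucleotides on a log scale, and diamonds mark an adjusted p under 0.05 in granulocytes. The 9 core genes with the shortest coding sequences lie at the upper left, between -0.34 and -0.14 in promyelocytes and between 0.20 and 0.55 in granulocytes.

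The genes at the top of the granulocyte list had short coding sequences in common. Core ribosomal protein genes have coding sequences of 75 to 1281 nucleotides (stop codon left out), with a median of 454.5, where the median of the other protein-coding genes tested was 1398. A split at 300 nucleotides was chosen after the values were seen and is given as a description, without a test of the split. It takes in 9 core genes: *RPL41*, *RPL39*, *RPS29*, *RPS28*, *RPL38*, *RPS21*, *RPS27*, *RPL37A* and *RPL37*. The smallest is a peptide of 25 residues that bridges the subunits, *RPL39* lines the exit tunnel of the growing chain, and *RPS29*, *RPS27*, *RPL37* and *RPL37A* are zinc-binding proteins. The coding sequences of the 3 shortest (hg38, GENCODE v44 main transcripts) are shown whole, with start and stop codons in capitals. They lie at chr12:56116788-56117524 (plus strand), chrX:119786684-119791576 (minus) and chr14:49583667-49586346 (minus), introns included.
RPL41: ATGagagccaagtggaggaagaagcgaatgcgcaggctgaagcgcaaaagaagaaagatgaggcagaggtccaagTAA
RPL39: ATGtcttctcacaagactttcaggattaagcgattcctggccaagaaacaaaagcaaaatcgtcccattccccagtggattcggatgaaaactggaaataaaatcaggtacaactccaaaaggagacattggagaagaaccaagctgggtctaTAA
RPS29: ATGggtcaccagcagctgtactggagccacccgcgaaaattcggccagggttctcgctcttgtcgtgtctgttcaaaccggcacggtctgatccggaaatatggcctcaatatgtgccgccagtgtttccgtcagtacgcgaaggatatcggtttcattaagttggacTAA

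In granulocytes all 9 rose, where 24.4% of all genes tested did, with a median log2 fold change of 0.30. *RPS29* (ENSG00000213741.9, chr14:49570984-49599164), mutated in some cases of Diamond-Blackfan anemia, stood at 189, 151 and 149.7 CPM with vehicle and 223, 258 and 237 CPM with TNF-α. The lowest TNF-α library was above the highest vehicle library, and the log2 fold change was 0.55 ± 0.06 (adjusted p = 2.19e-09, edgeR). *RPL38* (ENSG00000172809.12, chr17:74203582-74210655), known for its part in the translation of *Hox* mRNAs in mouse embryos, went from 317, 280.4 and 285 CPM to 423, 399.7 and 365 CPM, a change of 0.43 ± 0.05 (adjusted p = 2.55e-08). *RPS27* (ENSG00000177954.11, chr1:153990759-153992150) went from 669, 572 and 620.4 CPM to 839.9, 821 and 758 CPM, a change of 0.38 ± 0.06 (adjusted p = 3.64e-07). None of these 3 genes overlapped between the groups.

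*RPL37* (ENSG00000145592.13, chr5:40825262-40835335), whose product can bind MDM2, was at 367, 336 and 340.2 CPM with vehicle and at 479, 441 and 415 CPM with TNF-α. Its change was 0.36 ± 0.05 (adjusted p = 5.78e-07). *RPL41* (ENSG00000229117.8, chr12:56116586-56117943) was at 566, 498 and 545 CPM and then at 683, 676 and 625 CPM, a change of 0.30 ± 0.05 (adjusted p = 8.97e-06). For *RPL41* the table also holds processed pseudogenes, which took 14.8% of the counts of gene and pseudogenes together. Of the 9 genes, 8 had all TNF-α libraries above all vehicle libraries, as did 27.3% of all genes tested. The exception was *RPL39*, at 348, 268 and 270.1 CPM with vehicle and 284, 359 and 375 CPM with TNF-α, with a change of 0.20 ± 0.08 (adjusted p = 0.026). Its call held in 2 of the 6 fits that left out 1 library, with values of 0.13 to 0.33, and those of the other 8 in all 6.

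*RPL37A* rose by 0.28 ± 0.05, *RPS21* by 0.27 ± 0.05 and *RPS28* by 0.22 ± 0.05 (adjusted p = 4.37e-05, 4.6e-05 and 0.000823). *RPS28*, which lies near the exit of the mRNA channel, was at 454, 392 and 422 CPM with vehicle and 482, 513 and 477 CPM with TNF-α. Among the 69 longer core genes, 15 rose (21.7%) and 1 fell (1.45%), with a median of 0.06. Of all genes tested, 24.4% were increased and 24.8% decreased.

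In promyelocytes the same 9 genes all had values below 0, with a median of -0.26, and none was called by edgeR or by DESeq2. This count depended on the setting: edgeR called 7 of them lower without the filter, 5 in a fit of all 12 libraries and 2 with a replicate block. At an unadjusted p under 0.05, 6 of the 9 were lower, as were 2156 of all 16250 genes tested. *RPS27* had the lowest value of the 85 genes, -0.34 ± 0.13 (adjusted p = 0.0837), at 643, 515 and 547 CPM with vehicle and 314, 527 and 507 CPM with TNF-α. *RPS29* was at 318, 214 and 213 CPM with vehicle and 143, 255 and 216 CPM with TNF-α, a change of -0.28 ± 0.15 (adjusted p = 0.255). In both genes the first TNF-α library was the lowest of the 6 and the first vehicle library the highest. The same held for *RPL38*, at 527, 417 and 435 CPM with vehicle and 301, 432 and 415 CPM with TNF-α.

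The first TNF-α library of the promyelocytes stood apart for all 9 genes. They took 5.57% of the family's counts there, and 6.84% and 6.997% in the other TNF-α libraries, against 7.19% to 7.72% with vehicle. Without this library the median of the 9 genes was -0.09 in place of -0.26, their values ran from -0.14 to 0.09, and the value of *RPS28* was above 0. With the first vehicle library left out instead, the median was -0.16. The first TNF-α library stood apart beyond these 9 genes. Its median deviation of log2 CPM from each gene's promyelocyte mean was -0.46 for the 9 genes and -0.12 for all members tested. For other protein-coding genes at 161 CPM or above, it was -0.09 up to 400 coding nucleotides and 0.04 above 1000. The value above 1000 was the highest of the promyelocyte libraries, and the others were the lowest.

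**Figure D3:**
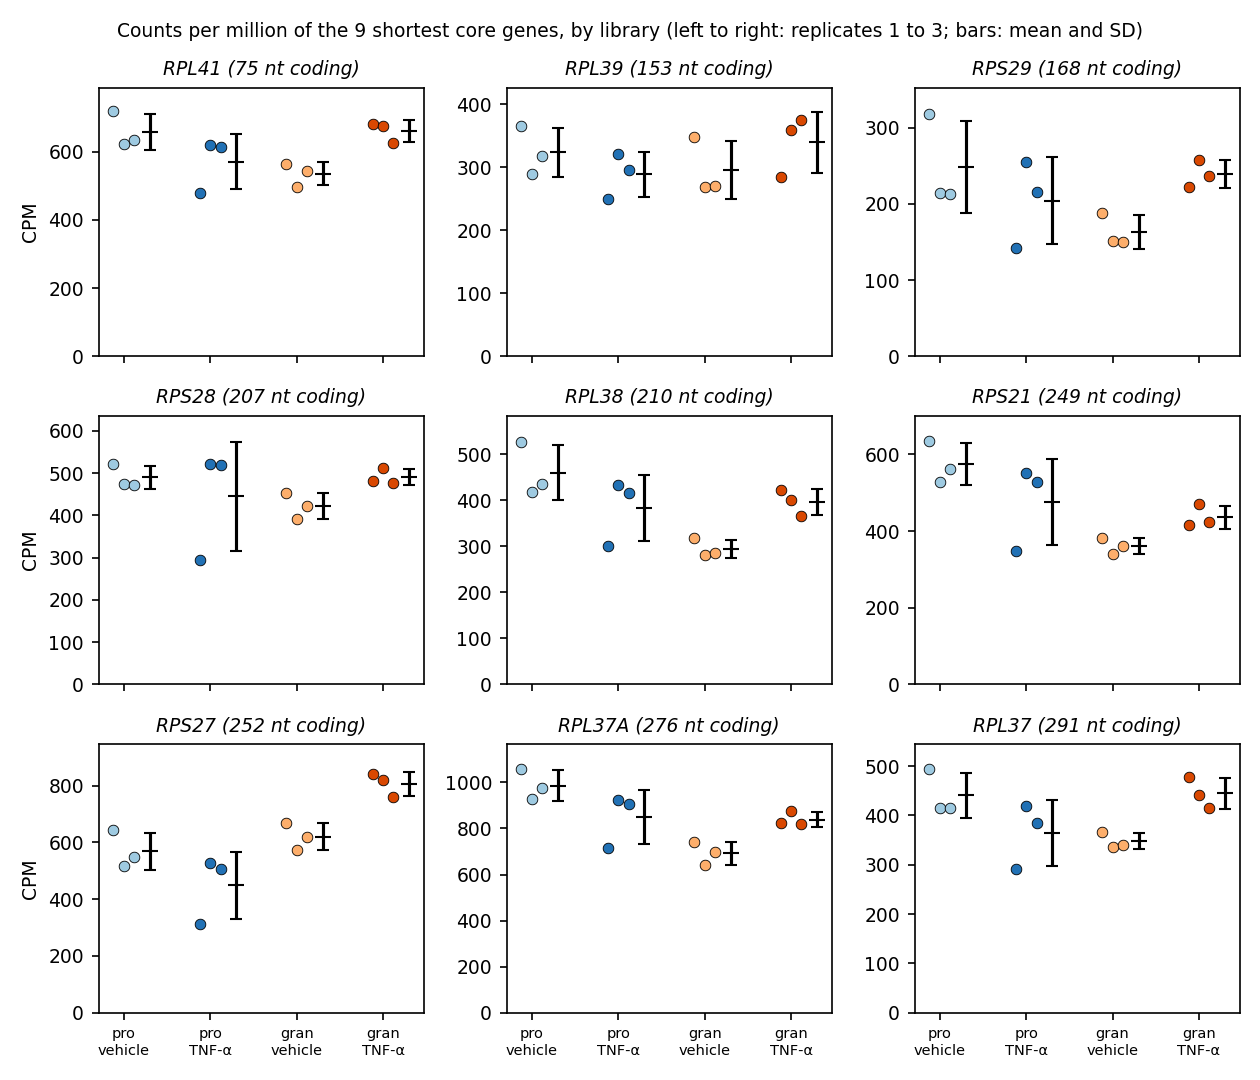
Normalized counts (CPM, TMM library sizes of each cell type) of the 9 core genes with coding sequences of up to 300 nucleotides, by group (pro, promyelocytes; gran, granulocytes). Points are libraries (replicates 1 to 3 from left to right), bars the mean and SD of 3 libraries, and each vertical axis starts at 0. In granulocytes TNF-α libraries lie above vehicle libraries for all but *RPL39*, and in promyelocytes the first TNF-α library is the lowest of its cell type in each panel.

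Over all 78 core genes the granulocyte response followed coding length. Spearman's rho between coding length and log2 fold change across genes was -0.56 in granulocytes and 0.30 in promyelocytes. The points share their libraries and are not independent replicates, so no p is given. With the annotated exon length in place of the coding length, rho was -0.23 and 0.18, with mean level -0.18 and -0.08, and with GC content -0.03 and -0.27. Of the 10 highest core genes in granulocytes 7 had coding sequences of up to 300 nucleotides, and all 9 were among the 10 lowest in promyelocytes. By length, the granulocyte medians were 0.30 up to 300 nucleotides, 0.12 above 300 and up to 400, 0.08 up to 500, 0.06 up to 700 and 0.055 up to 1000.

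Other genes with short coding sequences had smaller medians. In granulocytes, 258 other protein-coding genes of up to 300 coding nucleotides had a median of 0.07, with 90 increased and 35 decreased, and 4443 genes above 1000 and up to 2000 nucleotides had one of -0.03, with 1202 increased and 1396 decreased. Among other genes at 161 CPM or above, the 21 of up to 300 nucleotides had a median of 0.14 in granulocytes, where 11 rose and 1 fell, and 0.00 in promyelocytes, where 4 rose and 4 fell. At that level the medians in granulocytes did not fall evenly with length: they were 0.10 above 300 and up to 400 nucleotides, 0.06 above 500 and up to 700, 0.12 above 700 and up to 1000, and 0.03 above 2000.

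When all libraries were corrected for GC content and coding length, a setting chosen after the data were seen, 14 of the 85 genes rose and 13 fell in granulocytes, with a median of 0.00. Of the 9 short genes 6 were still increased, with a median of 0.21. In promyelocytes the same setting gave 1 increase and 8 decreases, 7 of them among the 9 short genes. The excess of increases over decreases in the whole family was thus lost under this setting, while 8 of the 9 short genes kept values above 0 and *RPS28* stood at -0.01. Calls among all genes under this setting are not reported here, so these counts have no share of all genes beside them.

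**Figure D4:**
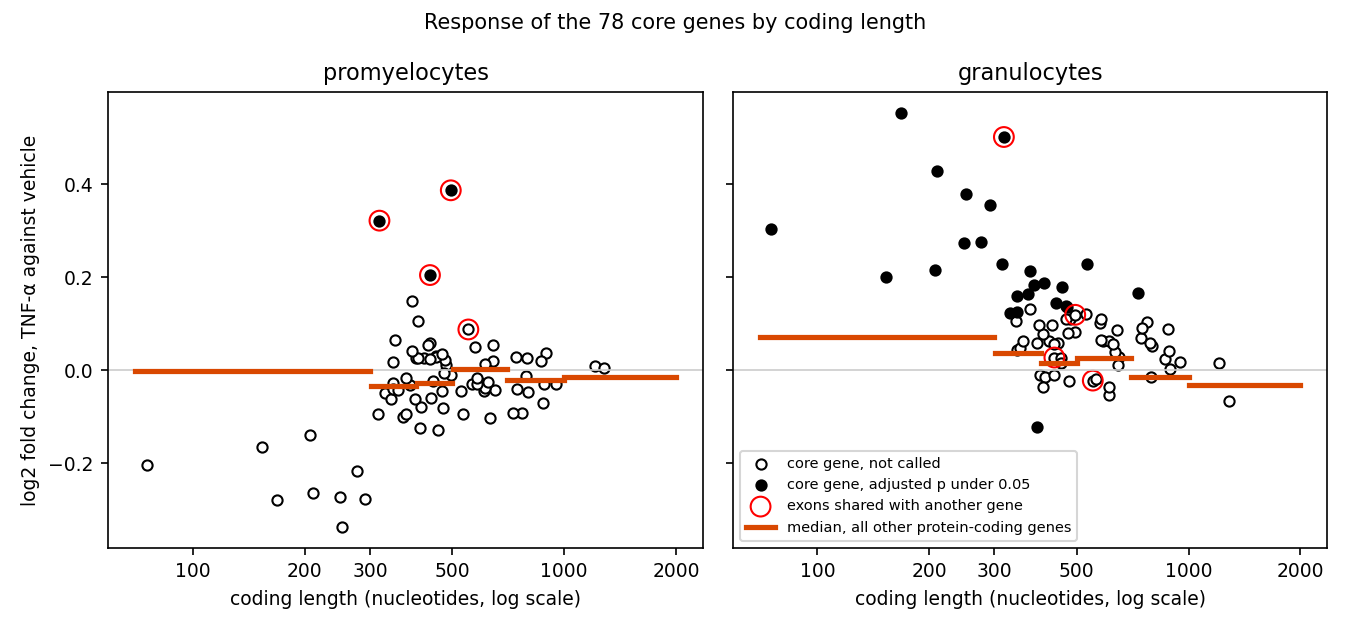
Log2 fold change with TNF-α of the 78 core genes against coding length in nucleotides (log scale), in promyelocytes (left) and granulocytes (right). Filled points have an adjusted p under 0.05, and red rings mark the 4 genes with over 30% of exon bases shared with another gene. Orange lines give the median of all other protein-coding genes of each length. In granulocytes the core genes of up to 300 nucleotides lie at 0.20 to 0.55, above the 0.07 of other genes of that length, and in promyelocytes at -0.34 to -0.14.

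Whether granulocytes and promyelocytes responded differently was tested as an interaction over all 12 libraries and 18124 genes. It was called for 17 of the 85 genes: 16 had a more positive response in granulocytes and 1, *RPS15A*, a more negative one. Of all genes tested 24% were called, 14.1% with a more positive and 9.88% with a more negative value in granulocytes. The members' median difference was 0.12, beside 0.03 for all genes. Other protein-coding genes at 161 CPM or above had medians as high at some lengths. These were 0.12 up to 300 coding nucleotides, 0.23 above 300 and up to 400, 0.05 above 400 and up to 500, and 0.04 above 2000. Of the members 18.8% were called with a more positive value, and of these other genes 33.3%, 31.7%, 35% and 26.1%. With DESeq2's size factors, which move the split of all genes from 2561 positive and 1790 negative to 2128 and 2266, 10 members were called with a positive difference and 1 with a negative one. DESeq2 itself called 9 and 2.

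The smallest p-values belonged to *RPL38* (difference 0.73 ± 0.14, adjusted p = 0.00025), *RPL37* (0.67 ± 0.13, adjusted p = 0.000303), *RPL41* (0.55 ± 0.11, adjusted p = 0.000576), *RPL37A* (0.53 ± 0.11, adjusted p = 0.000601) and *RPS27* (0.76 ± 0.16, adjusted p = 0.00112), all by edgeR. The largest difference was that of *RPS29*, 0.87 ± 0.20 (adjusted p = 0.0022). Of the 9 short genes, 8 were called, and *RPS28* was not (0.39 ± 0.17, adjusted p = 0.0967). Without the first TNF-α library of the promyelocytes the differences of *RPL38* and *RPS29* were 0.58 and 0.67, 7 of the 9 were called, and *RPL39* was not (0.31, adjusted p = 0.115). DESeq2 called 5 of the 9. The other 9 genes called were *RPL36*, *RPL11*, *RPL22*, *RPS18*, *RPS3*, *RPS19BP1*, *RPS25*, *RPL27* and *RPS15A*. Of the 12 fits that left out 1 library, the call of *RPL11* and *RPL36* held in all 12, of *RPL22* in 11, *RPS18* in 10, *RPS3* in 7, *RPL39*, *RPL27*, *RPS25* and *RPS19BP1* in 6 and *RPS15A* in 5.

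By role, most of the well-studied members moved little. *RPL5* and *RPL11* form a particle with the 5S ribosomal RNA and, outside the ribosome, bind MDM2. *RPL11* rose in granulocytes, from 703, 636 and 688 CPM to 860.2, 793 and 722 CPM (0.23 ± 0.06, adjusted p = 0.00083), without overlap. Its partner *RPL5* did not pass the test, at 664, 584 and 594 CPM with vehicle and 623, 619 and 603 CPM with TNF-α (0.00 ± 0.05, adjusted p = 0.973). In promyelocytes *RPL11* stood at -0.09 ± 0.07 and *RPL5* at 0.04 ± 0.06, and the responses of *RPL11* differed between the cell types (0.36 ± 0.10, adjusted p = 0.00877).

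The acidic stalk, which recruits elongation factors, consists of *RPLP0*, *RPLP1* and *RPLP2*. Of the 3, *RPLP2* rose in granulocytes, from 377, 332 and 347 CPM to 389, 399 and 392 CPM (0.16 ± 0.05, adjusted p = 0.00891). *RPLP1* stood at 0.10 ± 0.06 and *RPLP0*, the longest of them, at 0.02 ± 0.06. *RPLP0* was measured at 2238, 1997 and 2163 CPM with vehicle and 2237, 2183 and 2051 CPM with TNF-α, and is often used as a reference gene in RT-qPCR. In promyelocytes the 3 values lay between -0.06 and -0.03 and none was called (none at an unadjusted p under 0.05, none by DESeq2).

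*RPS27A* and *FAU* are made as fusions to ubiquitin or a ubiquitin-like protein. *RPS27A* rose in granulocytes by 0.14 ± 0.06 (adjusted p = 0.0371, called in 2 of 6 fits without 1 library), and *FAU* stood at -0.01 ± 0.05. *RACK1*, a scaffold on the small subunit, was at -0.03 ± 0.05 (adjusted p = 0.654). Around the exit tunnel, *RPL39* and *RPL22* rose (0.18 ± 0.05 for *RPL22*, adjusted p = 0.00224), while *RPL4*, with the longest coding sequence of the family, stood at -0.07 ± 0.05 and *RPL17* at -0.02 ± 0.10. At the mRNA channel and decoding site *RPS3* rose by 0.17 ± 0.05 (adjusted p = 0.00702), and *RPS2* and *RPS23* stood at 0.09 ± 0.06 and 0.10 ± 0.05. *RPS3* can also act with NF-κB in the nucleus. *RPS6*, the substrate of S6 kinase, stood at 0.09 ± 0.05 with TNF-α libraries all above vehicle libraries, and *RPSA* and *RPL13A* at 0.04 ± 0.05 and -0.05 ± 0.05.

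Of the 12 genes listed for Diamond-Blackfan anemia, 4 rose in granulocytes (*RPS29*, *RPL11*, *RPL35A* and *RPS26*) and 2 in promyelocytes (*RPS10* and *RPL26*), where 24.4% and 8.15% of all genes tested were increased. *RPL35A* and *RPS26* changed by 0.12 ± 0.05 each (adjusted p = 0.0469 and 0.0395), and their calls held in 3 and 2 of the 6 fits that left out 1 library. *RPS19*, the gene most often mutated in that disease, was at 1122, 968 and 1048 CPM with vehicle and 1044, 1111 and 1108 CPM with TNF-α in granulocytes (0.06 ± 0.05, adjusted p = 0.409). *RPL5*, *RPL15*, *RPS7* and *RPS24* did not pass the test in either cell type.

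The TOP tract was read at the annotated start of each main transcript. A C followed by at least 4 pyrimidines stood at the exact start of 59 of the 78 core genes (75.6%), of 2 of the 10 paralogs and of 5.09% of 11869 other protein-coding genes tested. The starts are annotated ones and were not measured in these cells. Windows of 30 bases, from 10 before the start to 20 after it, are shown 5′ to 3′ on the gene's strand (hg38) with the pyrimidine run in capitals. They are given for the short core genes other than *RPS21* and *RPS28*, and for *RPS15A*, which fell in granulocytes. Also shown are *RPLP0* and *RPS6*, called in neither cell type, and 3 paralogs without a run.
RPS29: gggccagcttCTTCCTTTTacctcgttgca
RPL38: aagtctcgttCTTTTTCgtccttttccccg
RPS27: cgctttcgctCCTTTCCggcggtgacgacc
RPL37: gaagtgccttCTCTTCCggtctttctggtc
RPL41: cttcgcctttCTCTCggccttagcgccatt
RPL37A: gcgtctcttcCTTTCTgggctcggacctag
RPL39: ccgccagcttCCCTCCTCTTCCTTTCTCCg
RPS15A: ccctcccgtcCTCTTTCCgccatctttccg
RPLP0: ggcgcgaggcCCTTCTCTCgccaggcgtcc
RPS6: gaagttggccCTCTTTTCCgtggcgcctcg
RPS27L: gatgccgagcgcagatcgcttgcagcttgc
RPL7L1: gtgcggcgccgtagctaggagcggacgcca
RPL26L1: acggaaactcacttccggccctgcgcactc

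The windows lie at chr14:49586361-49586390, chr17:74203668-74203697, chr1:153990752-153990781, chr5:40835203-40835232, chr12:56116623-56116652, chr2:216498834-216498863, chrX:119791611-119791640, chr16:18790315-18790344, chr12:120201092-120201121, chr9:19380217-19380246, chr15:63157458-63157487, chr6:42879606-42879635 and chr5:172959414-172959443, in the order shown. The run was 19 bases in *RPL39* and 5 in *RPL41*, 2 of the short genes that rose, and 8 in *RPS15A*, the gene that fell. *RPLP0* and *RPS6*, at 0.02 and 0.09 in granulocytes and not called, had runs of 9. Of the 59 core genes with a run at the start, 21 rose (35.6%) and 1 fell in granulocytes, with a median of 0.09. Of the 19 without one, 3 rose (15.8%), with a median of 0.06. Of all genes tested, 24.4% were increased. All of the 9 short genes but *RPS28* had a run, so this split overlaps the split by coding length. The part of coding length in these counts was not tested.

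RefSeq promoters (GRCh38.p14, 250 bases before to 50 after the start) were at hand for 63 of the 78 core genes. The ETS motif CCGGAAG stood on either strand in 33.3% of them and in 14.3% of 15226 promoters of other protein-coding genes. The YY1 motif AAGATGG was in 14.3% and 6.41%, the SP1 motif GGGCGG in 55.6% and 59.3%, and TATAAA in 7.94% and 9.61%. The NF-κB consensus was in 4.76%, or 3 promoters, against 12.3%. No motif contains another, and a match is a run of letters, not a measured site.

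The paralogs were compared with their parents per kilobase of coding sequence. On this scale *RPS27L*, a p53 target, stood at 4.24% of *RPS27* in vehicle-treated granulocytes and 2.94% with TNF-α. *RPL22L1* stood at 3.01% and 2.92% of *RPL22*, and *RPL7L1*, which acts in large subunit assembly, at 20.4% and 18.2% of *RPL7*. *RPL39L* stayed at 0.641 to 5.34 CPM, above the floor of 3 counts at 0.0953 to 0.135 CPM. *RPL36AL* was above its parent *RPL36A*, of which only a part was counted, at 104 to 135 CPM.

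Of the 6 paralogs tested, none was called in granulocytes (none at an unadjusted p under 0.05, none by DESeq2), and their median was 0.03. *RPL7L1* had all TNF-α libraries below all vehicle libraries there, at 137, 135 and 134 CPM and then 121, 129 and 128 CPM (-0.10 ± 0.05, adjusted p = 0.0922). *RPS27L*, with the same coding length as *RPS27*, stood at -0.14 ± 0.07 (adjusted p = 0.0957), from 28.1, 25.9 and 24.9 CPM to 22.6, 25.5 and 23.1 CPM. *RPL26L1* and *RPL36AL* stood at 0.01 ± 0.10 and 0.06 ± 0.05. *RPL39L*, which matches *RPL39* in coding length, was at 0.847, 1.00 and 0.641 CPM and then 1.21, 1.07 and 0.948 CPM (0.37 ± 0.32, adjusted p = 0.346).

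**Figure D5:**
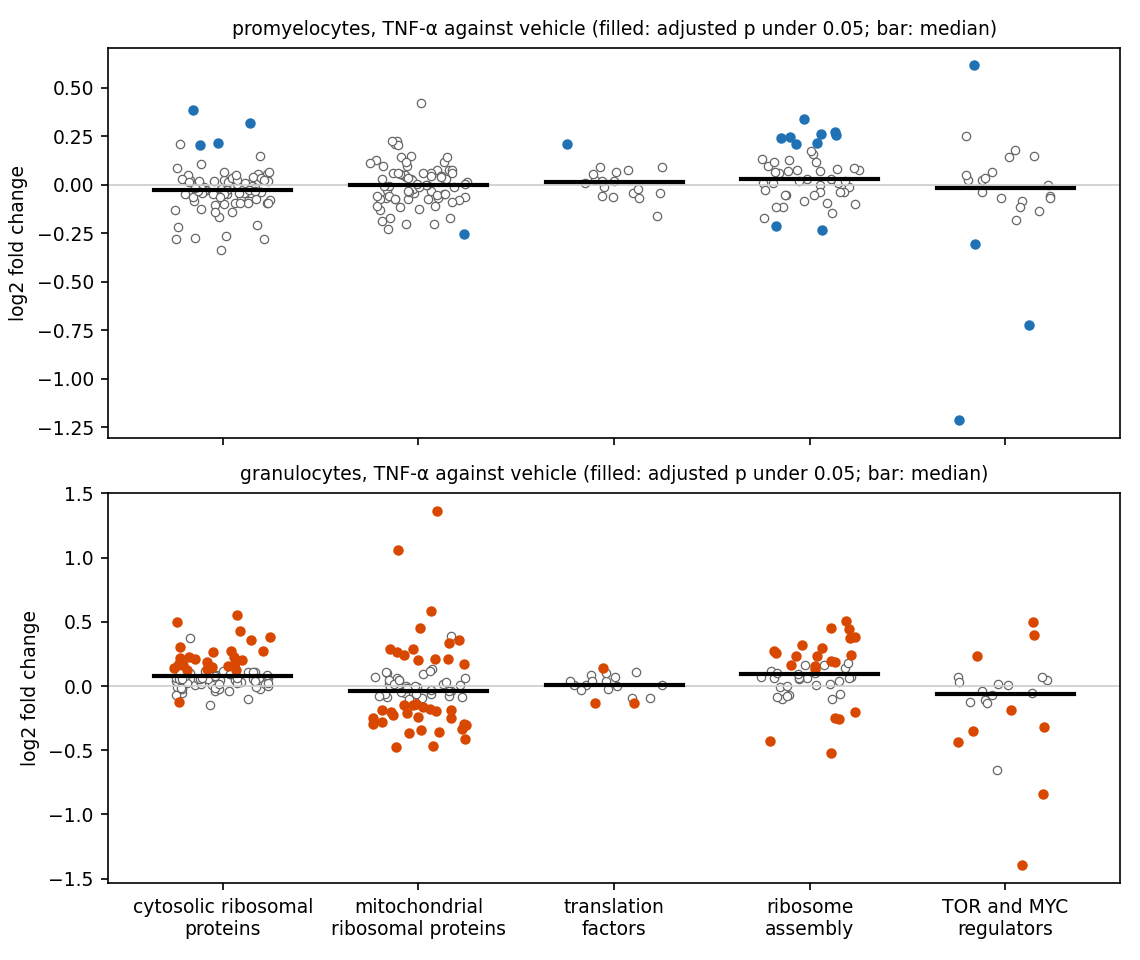
Log2 fold change with TNF-α of the ribosomal protein genes tested and of 4 related gene lists, in promyelocytes (top) and granulocytes (bottom). Points are genes, filled where the adjusted p is under 0.05, and bars are medians. In granulocytes 25 ribosomal protein genes rose and 1 fell, while 14 mitochondrial ribosomal protein genes rose and 26 fell. Of all genes tested there, 24.4% were increased and 24.8% decreased.

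Other lists of ribosome production and translation genes were set beside all genes tested. Of all genes tested, 24.4% were increased and 24.8% decreased in granulocytes, and 8.15% and 6.65% in promyelocytes. The 78 mitochondrial ribosomal protein genes serve the separate ribosome of mitochondria. They held 14 increases (17.9%) and 26 decreases (33.3%) in granulocytes, with a median of -0.04. *MRPL52* went from 51.7, 53.7 and 60.0 CPM to 138, 147 and 141 CPM (1.36 ± 0.06, adjusted p = 4.41e-22), and *MRPS24*, counted at only 0.50 to 1.71 CPM there, rose by 1.06 ± 0.31 (adjusted p = 0.00449). *MRPS23* and *MRPS27* fell by 0.48 and 0.47 on the log2 scale. In promyelocytes 1 fell, *MRPS26* (-0.25 ± 0.08, adjusted p = 0.0326), and 0 rose (4 at an unadjusted p under 0.05, 0 by DESeq2).

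Of 18 other translation genes tested whose mRNAs are known for TOP tracts, 1 rose (5.56%) and 2 fell (11.1%) in granulocytes. Their median was 0.01. The histone chaperone gene *NAP1L1* rose by 0.14 ± 0.05 (adjusted p = 0.0179), and the initiation factor genes *EIF3L* and *EIF4B* fell by 0.14 and 0.13. In promyelocytes 1 rose, *NAP1L1* again (0.21 ± 0.06, adjusted p = 0.0146), and none fell (1 at an unadjusted p under 0.05, none by DESeq2). A pyrimidine run stood at the annotated start of 17 of the 19 genes of this list.

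Of 48 ribosome assembly genes, 17 rose (35.4%) and 5 fell (10.4%) in granulocytes, with a median of 0.10. In promyelocytes 8 rose (16.7%) and 2 fell (4.17%), with a median of 0.03. *DDX21*, a helicase of ribosomal RNA processing, rose by 0.50 ± 0.05 in granulocytes (adjusted p = 3.03e-11) and *GTPBP4*, an assembly GTPase, by 0.45 ± 0.05 (adjusted p = 1.89e-09). *RIOK2* and *WDR12* fell by 0.52 and 0.43. In promyelocytes *LTV1*, which acts in export of the small subunit, rose by 0.34 ± 0.06 (adjusted p = 0.000272), as did *GTPBP4* (0.27 ± 0.05, adjusted p = 0.00127). *GAR1* fell by 0.23 there, where it rose in granulocytes (0.23 ± 0.08, adjusted p = 0.0163), and *UBTF*, a factor of ribosomal RNA transcription, by 0.21.

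Among 22 regulators of the TOR and MYC pathways, *MYC* fell in promyelocytes, from 1949.5, 1875 and 1772 CPM to 778, 771 and 865 CPM (-1.21 ± 0.06, adjusted p = 1.37e-11). In granulocytes *MYC* was at 74.8, 79.3 and 82.5 CPM and then 82.3, 72.9 and 70.8 CPM (-0.07 ± 0.06, adjusted p = 0.341). *LARP1* rose in granulocytes, from 327, 358 and 370.4 CPM to 517, 489 and 484 CPM (0.50 ± 0.05, adjusted p = 2.38e-10), and stood at -0.07 ± 0.06 in promyelocytes (adjusted p = 0.544). *MTOR* was at 0.00 ± 0.06 and 0.01 ± 0.05.

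The mTOR inhibitor gene *DDIT4* rose in promyelocytes (0.62 ± 0.07, adjusted p = 1.48e-06) and fell in granulocytes (-0.32 ± 0.07, adjusted p = 8.04e-05). *SESN2* rose in granulocytes (0.40 ± 0.08, adjusted p = 0.000151), whereas *SESN3* fell in both cell types, by 0.72 and 1.40. *PDCD4*, an inhibitor of translation initiation, fell by 0.84 in granulocytes. In all, 1 of the 22 rose (4.55%) and 3 fell (13.6%) in promyelocytes, and 3 rose (13.6%) and 6 fell (27.3%) in granulocytes.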

How the data were processed

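Ribosomal RNA was depleted with RiboZero Gold and the libraries were sequenced as stranded read pairs. Per the labels and the file header, the authors aligned reads with STAR 2.5.3a to hg38 and deposited raw counts per gene from featureCounts 1.5.2 (GENCODE v27, strand option 2), after FastQC 0.11.4. The submitters' processing notes also name DESeq2 1.16.1. A read pair that maps to several places was counted once, at its primary alignment, so reads of a ribosomal protein gene and of its processed pseudogenes can be exchanged. Pairs on exons of more than 1 gene of the same strand were not counted. The deposited counts held 1607 pseudogene rows of these genes, with 1.65% to 1.99% of the counts of members and pseudogenes together.

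Counts were fitted per cell type with edgeR 4.0.16 (R 4.3.3): TMM scaling, filterByExpr (minimum count 10, minimum total 15), quasi-likelihood tests of TNF-α against vehicle and Benjamini-Hochberg adjustment over all genes tested, with a threshold of 0.05. The difference of the responses was the interaction in 1 fit of all 12 libraries with its own scaling. CPM were computed with TMM library sizes within a cell type. A log2 fold change is a fitted value with a prior count of 0.125, and ± after it is the SE. A depth of 3 counts was taken as the floor of detection, for counting error only. The fits were tested on simulated data with known changes. No pair of replicates agreed within sampling noise. DESeq2 1.42.0 was an alternative, as were other scalings, no filter, a threshold of 0.01, removal of GC and length trends, summed pseudogene counts, a replicate block and leaving out each library. Removal of coding length trends was added after the data were seen.

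Symbols, transcripts and coding lengths came from GENCODE v44 on hg38, and 756 of 58288 rows had no symbol. Tables and plots were made with Python 3.11.15, pandas 2.3.3, numpy 2.4.6 and matplotlib 3.10.9. The members and lists were chosen with earlier results of these data known. Named genes were, per cell type, the 5 largest increases and decreases among members called, the 5 smallest interaction p-values, the 5 highest levels per kilobase, the role lists and the paralogs, and from each related list the 2 largest changes each way. The 9 short genes as a set, the other interaction calls, and *DDIT4* in granulocytes and *GAR1* in both cell types were named after their values were seen. Some genes that this rule names are not reported here.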

Additional observations from a re-analysis of the deposited data

Results flagged for a closer look

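The response to TNF-α differed between granulocytes and promyelocytes in 17 of the 85 genes tested, by the interaction term of the edgeR fit over 12 libraries (adjusted p under 0.05 over 18124 genes). This is 20% of them, where 24% of all genes tested were called. Each value is the log2 fold change in granulocytes minus that in promyelocytes. Among the core genes with coding sequences of up to 300 nucleotides, the differences were 0.87 for *RPS29*, 0.76 for *RPS27*, 0.73 for *RPL38*, 0.67 for *RPL37*, 0.59 for *RPS21*, 0.55 for *RPL41*, 0.53 for *RPL37A* and 0.40 for *RPL39*. In all 8 the granulocyte value was above 0 and passed its own test, and the promyelocyte value was below 0 and did not pass. The first TNF-α library of the promyelocytes was the lowest of its cell type in each, and without it 7 of the 8 were still called. The call of *RPL39* was lost in 6 of the 12 fits that left out 1 library, this one among them, and those of the other 7 in none.

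Among longer genes, the differences were 0.36 for *RPL36*, 0.36 for *RPL11*, 0.35 for *RPS18*, 0.35 for *RPL27*, 0.35 for *RPS25*, 0.30 for *RPS3* and 0.25 for *RPL22*. *RPS19BP1*, which encodes no ribosomal protein, differed by 0.35. Of the 12 fits without 1 library, *RPS3* was called in 7 and *RPL27*, *RPS25* and *RPS19BP1* in 6. *RPS15A* differed in the other direction, by -0.23, with 0.15 ± 0.06 in promyelocytes (adjusted p = 0.129, edgeR) and -0.12 ± 0.05 in granulocytes (adjusted p = 0.0413). Its difference was called in 5 of those 12 fits, and neither at a threshold of 0.01 nor with the replicate block. The cell types were handled in separate experiments, so a difference between cell types and one between experiments cannot be told apart.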

How the results depend on the processing

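With trends of GC content and coding length removed (added after the data were seen), increased and decreased members numbered 1 and 8 in promyelocytes (7 of the 8 short), 14 and 13 in granulocytes, and 15 and 4 in the interaction. Calls among all genes under this setting are not reported here. Under this setting *RPLP2* stood at -0.060, *RPS19* at -0.12 (adjusted p = 0.0237, edgeR), *RPS28* at -0.0056 and *RPL36* at -0.046 in granulocytes, and *FAU* at -0.20 and *RPL36* at -0.0057 in the interaction. With GC and exon length trends removed, 1 member was increased in promyelocytes, 7 decreased in granulocytes and 2 decreased in the interaction. The increases in granulocytes and in the interaction under that setting are not reported here. With all 12 libraries in 1 fit, 5 decreased in promyelocytes (all 5 short), and 16 increased and 0 decreased in granulocytes. Without the filter 7 decreased in promyelocytes, all 7 short. With DESeq2's size factors 0 decreased in granulocytes and 10 increased in the interaction. DESeq2 gave 9 increased and 2 decreased in the interaction, 5 of the 9 short, beside 1942 and 2299 of all genes. At a threshold of 0.01, 1438 genes were called in promyelocytes with 0 members increased, 0 members decreased in granulocytes, and the interaction called 2843 genes with 9 members increased and 0 decreased. The causes were not tested, except that a stricter threshold calls fewer genes.

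Replicate numbers did not pair the samples: same-numbered vehicle and TNF-α libraries had residual correlations of -0.15 to -0.04 in promyelocytes and -0.07 to -0.01 in granulocytes. With a replicate block, 1833, 7721 and 3349 genes were called in promyelocytes, granulocytes and the interaction. Members increased and decreased under the block were 2 and 2 (both decreases short) in promyelocytes, 19 and 0 in granulocytes, and 9 and 0 in the interaction.

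Leaving out 1 library gave 1598 to 2475 genes in promyelocytes with 0 to 5 members increased, 0 to 2 decreased and 0 to 2 short members decreased. In granulocytes it gave 7373 to 8010 genes, with 15 to 36 members increased, 0 to 1 decreased and 8 to 9 short members increased. In the interaction it gave 3604 to 4573 genes, with 9 to 23 members increased, 0 to 1 decreased and 7 to 9 short members increased. The 15 and the 9 came without the second vehicle library of the granulocytes, and without the first vehicle library of the promyelocytes 0 members increased there and 10 in the interaction. With mitochondrial transcripts left out of the total, the members' mean share was 6.79% and 6.53% in promyelocytes and 5.53% and 5.38% in granulocytes, with vehicle and TNF-α. Of the values compared across settings, 436 in promyelocytes, 426 in granulocytes and 362 in the interaction kept direction and call. With 3 flasks a group, an exact permutation of a single value cannot go below p = 0.1.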
